A study of Mus musculus with 7 samples.

Results

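The response of the mouse nasal cavity to diesel exhaust particles (DEPs) was compared between 8 and 4 weeks of exposure. All 7 arrays of the series and all 39429 probes that are not controls entered this comparison, which is the log2 ratio of DEP over control on the 3 DEP 8 weeks arrays minus that on the 4 DEP 4 weeks arrays. The mice were female BALB/c, 6 weeks of age by the labels, and 32 mice were used in the series. The study's methods describe exposure of mice of this age, so age at collection rose with exposure time and cannot be told apart from it. Exposed mice inhaled DEPs at 100 µg/m3, suspended in saline and nebulized into a closed chamber, for 1 hour a day on 5 days a week. The labels name the other RNA of each array only as control. By the study's methods, which describe 4 weeks of exposure, control mice received saline in the same way. Total RNA of the nasal cavity, which the study's methods describe as septum and turbinates, was hybridized on Agilent arrays with a pair of dyes, DEP RNA in Cy5 and control RNA in Cy3 on every array and no dye swap. The number of mice behind an array, and whether control RNA was pooled or shared between arrays, are not given in the sources used here, so the p-values measure the spread between these arrays, which may be technical.

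All 4 arrays of 4 weeks share a slide and all 3 of 8 weeks share a different one, so that every difference given here is between slides as much as between times, and the effects of slide and time cannot be told apart. A dye effect that is constant for a probe cancels in the 8 minus 4 week difference, but it remains in the ratio at each time. Per array, 18601 to 25069 probes exceeded background clearly with DEP RNA and 16985 to 26927 with control RNA, and saturated spots were absent. Log2 ratios correlated at Pearson r of 0.49 to 0.54 between 4-week arrays and of 0.73 to 0.88 between 8-week arrays, across tested probes, which are not independent. The labelled tissue was borne out by *Omp*, the olfactory marker protein of mature olfactory neurons, which gave clear signal with either dye on every array. All 18 listed markers of that neuron were bright enough to be tested. Genes of teeth, skeletal muscle, glands and blood were bright as well, and their values are given beside the results.

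The nasal cavity holds respiratory and olfactory epithelium over bone and cartilage, with glands that secrete mucins, antimicrobial proteins and odorant-binding lipocalins. Olfactory neurons are replaced throughout life from basal progenitors, and sustentacular cells beside them are rich in detoxifying enzymes. Most tissues, the nose included, also run a molecular clock, in which *Arntl* and *Clock* drive their own repressors and a set of output genes, so that the level of these genes follows the hour at which tissue is taken. DEPs carry polycyclic hydrocarbons that activate the aryl hydrocarbon receptor, and oxidative stress activates genes under the transcription factor Nrf2.

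A positive log2 ratio means more signal in DEP than in control tissue, a log2 unit is 2-fold, and a gene is represented by the brightest of its tested probes. Of 17714 genes or transcripts tested, 6283 (35.5%) differed between 8 and 4 weeks at an adjusted p of at most 0.05 by limma, 2844 higher at 8 weeks (16.1%) and 3439 lower (19.4%), and 8144 had an unadjusted p under 0.05. The adjusted count was 4018 without replicate 2 of 8 weeks. A gene was called when it also differed by at least 2-fold, which 600 genes did (3.39%), 374 higher (2.11%) and 226 lower (1.28%). Called genes split as 62.3% higher with loess, but as 38.3% higher with median centring and 31.7% with the software's processed signals, and the median difference over all genes moved from -0.0075 to -0.11 and -0.14. Which direction held the majority therefore depended on the scaling. In 7919 genes (44.7%) the log2 ratios of the times did not overlap. Just inside the 2-fold limit were *Cyp4a12a* (-1.001), *H6pd* (1.001) and *Ormdl3* (-1.001), and just outside it *Golga7b* (-0.9997), *Aacs* (-0.9992) and *Adh1* (-0.9991).

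Against control tissue of the same array, 259 genes (1.46%) were called at 4 weeks, 183 higher (1.03%) and 76 lower (0.429%), and 584 (3.3%) at 8 weeks, 412 higher (2.33%) and 172 lower (0.971%). Of the 259 genes called at 4 weeks, 73 had a called difference at 8 weeks and 186 had not. The response patterns below are cut from these fitted values and are a description, while the difference itself is tested. In 275 genes the response reversed, which means a called difference and opposite signs that each passed an adjusted p of 0.05 in limma. In 39 genes a 4-week response faded, in 110 genes a response already present at 4 weeks grew, in 113 genes it appeared only at 8 weeks by the same thresholds, and in 106 genes it persisted at least 2-fold with 1 sign at both times and no called difference. Another 63 genes had a called difference outside these patterns. In every gene that reversed, faded, grew or appeared, the log2 ratios of the times did not overlap. In such genes, lack of overlap is no further support. Reversals were mostly of modest size, with a median absolute log2 ratio of 0.57 at 4 weeks and 0.70 at 8 weeks.

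**Figure D1:**
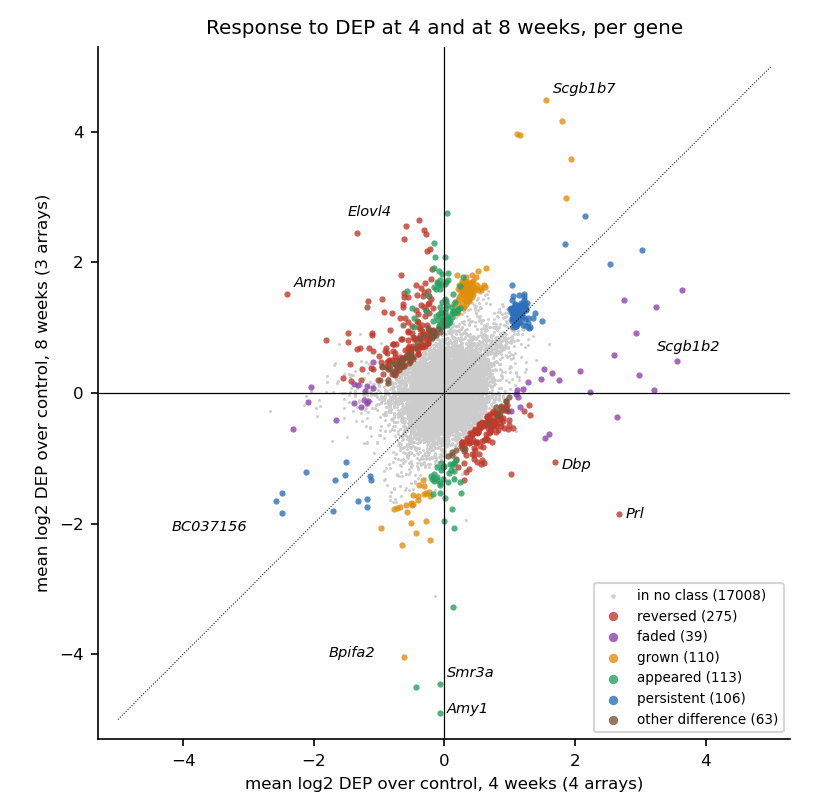
Mean log2 ratio of DEP over control at 4 weeks (x axis) against that at 8 weeks (y axis), with 1 point per tested gene, coloured by the response pattern, and the number of genes of each pattern in the legend. *Prl* and *Dbp* lie low on the right and *Ambn* high on the left, where the response reversed, and *Amy1* and *Smr3a* lie far down near 0 on the x axis, where it appeared at 8 weeks.

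*Prl*, the pituitary hormone prolactin, had the largest reversal among named genes. Its log2 ratios were 2.46, 2.86, 2.79 and 2.62 on the 4-week arrays and -1.72, -2.01 and -1.84 on the 8-week arrays. By the mean of each time it was 6.41-fold higher in DEP tissue at 4 weeks and 3.63-fold lower at 8 weeks. The difference was -4.54 with a standard error of 0.12 (limma, adjusted p = 8.9e-07), and between the times the DEP channel fell by 3.34 while the control channel rose by 1.20. In a list of 12 pituitary genes put together after values were seen, *Prl* included, 6 passed the filter. Of these 6, 1 was higher and 2 were lower at 8 weeks (16.1% and 19.4% of all genes). The hormone genes *Gh*, *Cga*, *Fshb* and *Tshb* were too dim to be tested. *Pomc* gave a difference of -0.21 with an interval of -0.45 to 0.03 (limma, adjusted p = 0.15), and *Chga*, a granule protein of many endocrine and nerve cells, reversed from 0.50 to -0.75.

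*Dbp*, a transcription factor that oscillates with the circadian clock, was the next largest gene to turn from higher to lower. It measured 1.98, 1.67, 1.57 and 1.55 at 4 weeks and -0.90, -1.03 and -1.24 at 8 weeks, with no overlap. The difference was -2.75, standard error 0.13 (limma, adjusted p = 9.5e-06), and it came with a control channel that was 2.83 higher at 8 weeks and a DEP channel that moved by 0.08. *Alas1*, the rate-limiting enzyme of heme synthesis, measured 1.11, 1.06, 0.94 and 0.95 and then -1.28, -1.22 and -1.22. For *Alas1* the control channel again moved more (1.82 against -0.43 in the DEP channel). Its other probe was less affected, from 0.33 to -0.58, a difference of -0.91. *Upk3bl*, a relative of the uroplakins, went from 0.60 to -1.08, and its other probe differed by -1.55 against -1.68.

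Among genes that turned from lower to higher, *Ambn* led, which encodes the enamel matrix protein ameloblastin. Its log2 ratios were -2.28, -2.41, -2.40 and -2.54 at 4 weeks and 1.63, 1.74 and 1.20 at 8 weeks. The difference was 3.93, standard error 0.13 (limma, adjusted p = 2.6e-06). Uniform signs within each time were a condition for naming a reversed gene by its size. *Elovl4*, which elongates very long fatty acids, went from between -0.44 and -0.30 to between 2.35 and 2.91, while its other probe went from -0.14 to 1.49. *Glycam1*, a mucin-like ligand of L-selectin, went from between -0.77 and -0.47 to between 2.22 and 2.50, and *Mt4*, a metallothionein of stratified epithelia, from between -1.89 and -1.73 to between 0.61 and 1.20. Their differences were 3.04, 2.97 and 2.63, each at a limma adjusted p of 2.1e-05 or less.

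**Figure D2:**
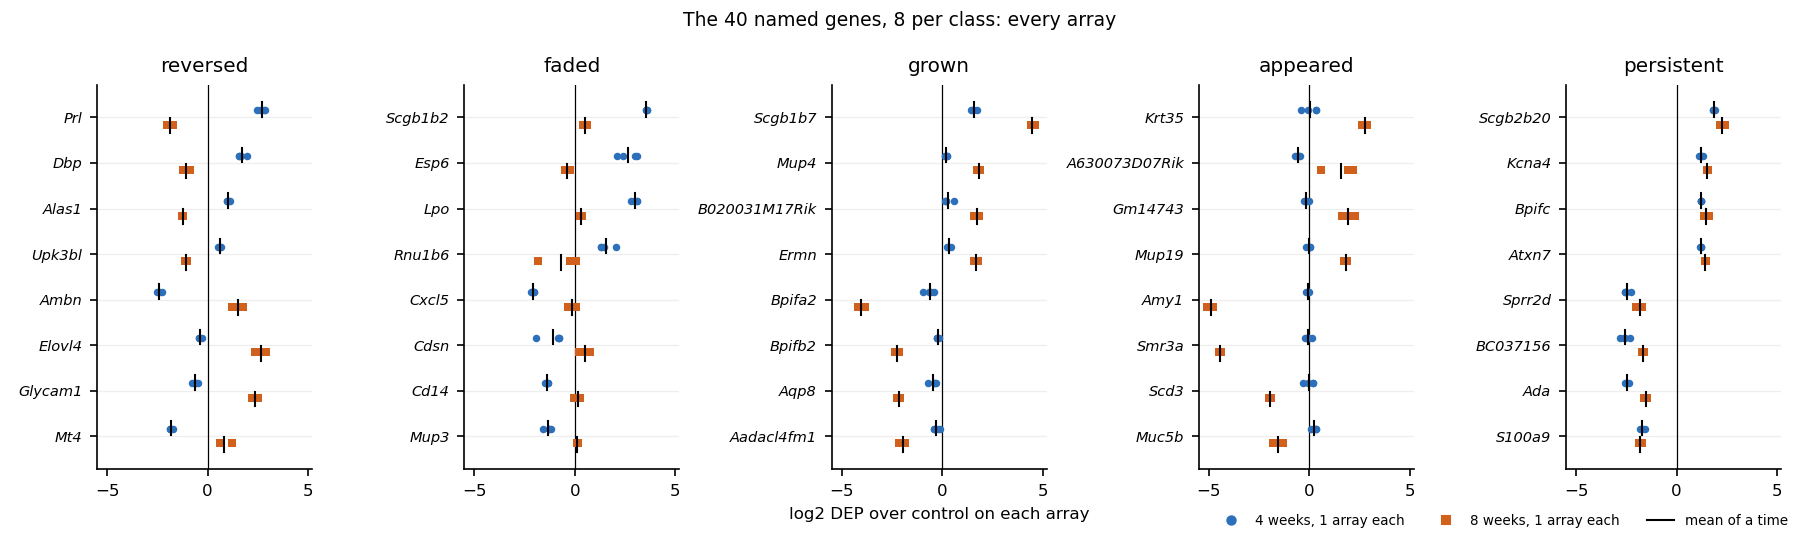
Log2 ratio of DEP over control (x axis) on every array for the 40 genes named by pattern and direction, 8 per pattern, with circles for 4-week arrays, squares for 8-week arrays and bars for the mean of each time. The circles and squares of *Prl* lie on opposite sides of 0, those of *S100a9* overlap, and *Rnu1b6* and *A630073D07Rik* have the widest spread at 8 weeks.

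Clock genes differed by arm. Over all tested genes 16.1% were higher and 19.4% lower at 8 weeks, with median log2 ratios of 0.0087 and -0.0056 at the 2 times, and each list below is read against these values. All 5 tested output genes were lower at 8 weeks than at 4, with a median that went from 0.92 to -0.53. Of 5 tested repressors, 4 were lower and *Per2* did not pass, with a median from 0.40 to -0.40. Of the activators and related factors, *Nfil3*, *Arntl*, *Clock*, *Npas2* and *Rora* were higher, and *Rora* did not pass with median centring (adjusted p = 0.054). *Per3*, *Cry1* and *Ciart* were too dim to be tested. The median of the output genes was between 0.82 and 1.11 on each 4-week array and between -0.54 and -0.35 on each 8-week array.

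*Dbp*, *Tef* and *Hlf* are the 3 related output factors, and all reversed. *Tef* measured 1.1, 0.86, 0.96 and 0.99 and then -0.58, -0.51 and -0.54, a difference of -1.52 (standard error 0.08). *Hlf* measured 1.11, 0.89, 0.82 and 0.86 and then -0.35, -0.49 and -0.76, a difference of -1.45 (standard error 0.12). For both, every 4-week array was above every 8-week array. *Nfil3*, which represses the same target sites, ran the other way, with -0.67, -0.69, -0.96 and -1.38 at 4 weeks and 1.37, 1.43 and 0.93 at 8 weeks. *Arntl*, the partner of *Clock*, measured -0.72, -0.95, -0.91 and -1.02 and then 0.93, 0.77 and 0.39. Differences were 2.17 for *Nfil3* and 1.60 for *Arntl* (limma, adjusted p = 0.00018 and 0.00014), with no overlap of times.

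Among the repressors, *Per1* fell from 1.00 to 0.07, a difference of -0.93, *Nr1d2* from 0.43 to -0.51, *Nr1d1* from 0.12 to -0.79 and *Cry2* from 0.40 to -0.23, none of them by the full 2-fold. *Per2* differed by -0.49 with an interval of -0.92 to -0.06 (limma, adjusted p = 0.076), and it passed without replicate 1 of 4 weeks (-0.65, adjusted p = 0.0092). *Usp2*, a deubiquitinase under clock control, fell from 0.90 to -0.06, and *Bhlhe40* by 0.32 (limma, adjusted p = 0.031), which did not pass without replicate 2 of 4 weeks (adjusted p = 0.065), replicate 4 of 4 weeks (0.057), or replicate 1 (0.053), 2 (0.055) or 3 (0.096) of 8 weeks. Of the activators, *Clock* rose from -0.38 to 0.46, *Npas2* from 0.03 to 0.60 and *Rora* from -0.03 to 0.41. *Npas2* was well above background in the control channel on 1 array of each time. Over the output genes the control channel rose by a median of 1.36 between the times and the DEP channel by 0.04. The hour of tissue collection is not given in the sources used here, and its part in these values was not tested.

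**Figure D3:**
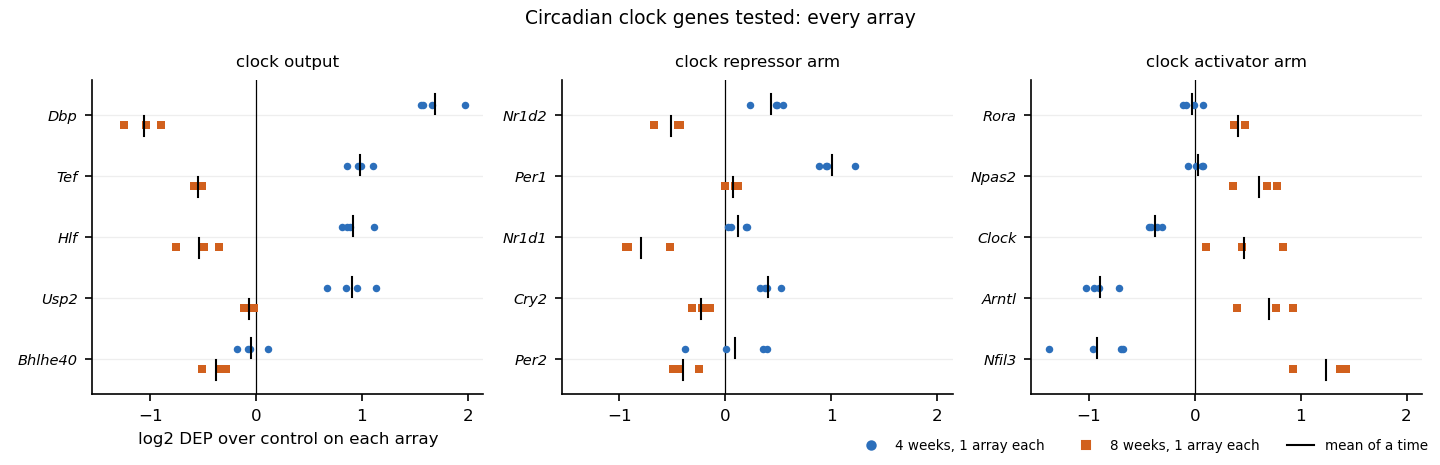
Log2 ratio of DEP over control (x axis) on every array for 15 tested clock genes, in 3 panels for output genes, repressors and activators, with circles for 4-week arrays, squares for 8-week arrays and bars for the mean of each time. Output genes and most repressors lie higher at 4 weeks, and *Nfil3*, *Arntl* and *Clock* lie higher at 8 weeks.

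Because these genes differed by arm, their promoters were searched for the letters that clock factors read, and those of 5 genes are shown, the output factors *Dbp* and *Tef*, their counterpart *Nfil3*, and *Arntl* and *Per1* for their matches. CACGTG is the E-box bound by ARNTL with CLOCK, and AGGTCA, or TGACCT on the other strand, is the core read by NR1D receptors. Both were searched on both strands from 250 bases before to 50 after each start in the RefSeq table (GRCm38.p6). The E-box was present in 7.15% of 32851 promoters and AGGTCA in 16.3%. Of these 15 clock genes, 13 had a promoter in the table. Of the 13, 2 held the E-box (*Tef* and *Per1*) and 5 held AGGTCA (*Arntl*, *Clock*, *Nfil3*, *Nr1d2* and *Per1*). A gene was counted when the promoter of any of its starts held the string. The shares above are of single promoters, so these counts cannot be set against them. *Hlf* and *Usp2*, whose differences were larger than that of *Per1*, held neither string and are not shown. The lines give the 170 bases before the start, 5′ to 3′ on the gene's strand, with matches in capitals. *Dbp* is at chr7:45705077-45705246 (+), *Tef* at chr15:81802503-81802672 (+) and, for its other start, chr15:81811244-81811413 (+), *Per1* at chr11:69098779-69098948 (+) and *Nfil3* at chr13:52981040-52981209 (-). For *Arntl*, whose match lies past the start, 30 bases are given at chr7:113207530-113207559 (+).
Dbp: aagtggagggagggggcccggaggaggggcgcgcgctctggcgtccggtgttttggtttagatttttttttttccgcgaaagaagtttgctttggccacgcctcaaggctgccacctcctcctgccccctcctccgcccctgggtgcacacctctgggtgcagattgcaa
Tef: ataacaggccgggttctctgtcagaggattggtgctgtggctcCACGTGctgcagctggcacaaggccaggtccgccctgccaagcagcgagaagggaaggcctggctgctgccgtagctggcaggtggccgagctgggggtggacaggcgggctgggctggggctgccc
Tef, other start: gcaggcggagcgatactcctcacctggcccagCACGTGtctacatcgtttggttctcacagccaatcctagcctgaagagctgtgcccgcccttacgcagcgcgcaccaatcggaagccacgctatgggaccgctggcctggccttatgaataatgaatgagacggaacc
Per1: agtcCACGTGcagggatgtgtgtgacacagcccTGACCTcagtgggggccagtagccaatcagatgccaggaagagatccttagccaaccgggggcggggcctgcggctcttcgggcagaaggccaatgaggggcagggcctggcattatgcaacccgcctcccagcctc
Nfil3: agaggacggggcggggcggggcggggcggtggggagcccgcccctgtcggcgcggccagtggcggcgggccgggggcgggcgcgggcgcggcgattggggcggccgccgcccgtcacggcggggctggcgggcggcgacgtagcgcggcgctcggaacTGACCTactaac
Arntl: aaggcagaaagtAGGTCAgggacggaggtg
The E-box began 127 and 138 bases before the starts of *Tef* and 166 bases before that of *Per1*, and the TGACCT of *Nfil3* began 12 bases before its start. The *Dbp* window held neither string, which says only that these letters are not in it.

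Genes of olfactory neurons shifted from higher to lower. Of 18 markers of the mature neuron, 15 were lower at 8 weeks and none higher (background 19.4% and 16.1%), with a median log2 ratio between 0.36 and 0.48 on the 4-week arrays and between -0.50 and -0.34 on the 8-week arrays. In 6 of them the response reversed. *Omp* measured 0.80, 0.94, 0.98 and 0.85 and then -0.29, -0.42 and -0.58. *Gng13*, a G protein subunit of the odour cascade, measured 0.34, 0.45, 0.62 and 0.68 and then -0.79, -0.89 and -1.12. *Gnal*, the olfactory G protein alpha subunit, measured 0.45, 0.71, 0.73 and 0.53 and then -0.69, -0.65 and -0.80. In all 3 the times were apart, with differences of -1.32, -1.46 and -1.32 (limma, adjusted p of at most 9.6e-05). The phosphodiesterase gene *Pde4a* (-1.31), *Stoml3* (-1.17), a membrane protein of olfactory cilia, and the channel subunit *Cngb1* (-1.04) completed the reversed genes.

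The adenylyl cyclase *Adcy3* varied at 4 weeks from -0.76 to 0.48, and its difference of -0.75 had an interval of -1.44 to -0.07 (limma, adjusted p = 0.084). It passed without replicate 1 of 4 weeks (-1.02, adjusted p = 0.0061). *Slc24a4*, an exchanger that ends the odour response, differed by 0.07 with an interval of -0.13 to 0.28. Over the 18 markers the DEP channel fell by a median of 0.36 and the control channel rose by 0.47. In bulk tissue, the share of neurons in a sample and the RNA per neuron cannot be told apart, in DEP or in control tissue.

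Genes of progenitors and immature neurons were lower in 10 of 17 tested (19.4% of all genes), with none higher and a median from 0.30 to -0.16. *Tubb3*, the neuronal tubulin, reversed from 0.35 to -0.68 and *Ebf2*, a transcription factor of the lineage, from 0.26 to -0.81. *Dpysl5* was on the same list and persisted, at 1.07 and 1.18. Sustentacular markers were lower in 7 of 10, among them *Cyp2g1* (-0.66), an olfactory cytochrome P450, and *Cbr2* (-1.32), a carbonyl reductase, and *Ermn* alone was higher. Of 1074 olfactory receptor genes on the array 225 could be tested, with 16 higher and 51 lower (16.1% and 19.4% of all genes). The share of lower genes was near that of all genes. With processed signals 84 were lower, where 5261 of all 17714 genes were lower. Called receptors were 5 higher and 2 lower (2.11% and 1.28% of all genes). *Olfr1348* had the largest difference of these 7, at -2.24. Receptor probes may bind related genes, so their identity is uncertain.

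Tooth genes moved most as a group. Of 7 tested, 6 were higher at 8 weeks (background 16.1%), and all 6 were called against 2.11% of all genes. Their median was between -1.45 and -1.21 on the 4-week arrays and between 0.76 and 1.03 on the 8-week arrays. *Dspp*, the precursor of dentin proteins, measured -1.23, -1.17, -1.16 and -1.14 and then 1.52, 1.5 and 1.22. *Enam*, an enamel matrix protein, measured -1.35, -1.56, -1.45 and -1.52 and then 1.03, 1.01 and 0.71. Neither gene overlapped between times, and *Amelx* (from -1.48 to 0.79) and *Odam* (from -1.33 to 0.68), both of the enamel organ, followed. *Klk4*, an enamel protease, measured -1.54 on replicate 1 of 4 weeks against -0.19 to -0.07 on the other 3, and its difference of 1.48 (limma, adjusted p = 0.014) was 1.13 without that array and was not significant without replicate 2 of 8 weeks (1.48, adjusted p = 0.052). *Dmp1*, which bone shares with dentin, differed by 0.26 with an interval of 0.05 to 0.47 (limma, adjusted p = 0.059), and *Amtn* and *Mmp20* were not tested. Both channels held more tooth signal at 8 weeks, by a median of 3.62 for DEP and 1.5 for control. How much tooth was taken with the nasal tissue is not given in the sources used here, and its part in these values was not tested.

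Collagen genes were higher at 8 weeks in 9 of 12, with none lower (16.1% and 19.4% of all genes). *Col3a1*, a collagen of loose connective tissue, measured -0.90, -1.22, -1.13 and -1.20 and then 0.89, 1.04 and 0.81. *Col12a1* reversed from -1.0 to 0.57 and *Col1a1*, the main collagen of bone, from -0.53 to 0.67. The list's median went from -0.45 to 0.16 with loess but to -0.03 at 8 weeks with median centring. Of 11 bone and cartilage genes 5 were higher, with a median from -0.56 to 0.08 (-0.04 at 8 weeks with median centring). *Phex*, an endopeptidase of bone and tooth cells, reversed from -0.67 to 0.83 and *Bglap*, osteocalcin, from -0.56 to 0.55. *Spp1*, osteopontin, stayed at -0.57 and -0.56, a difference of 0.01 with an interval of -0.21 to 0.23.

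Cell cycle genes were higher in 11 of 19 and lower in 2 (16.1% and 19.4% of all genes), with a median from -0.33 to 0.16. *Cdc20*, a regulator of mitotic exit, measured -1.0, -0.91, -0.94 and -0.80 and then 0.64, 0.66 and 0.63. The proliferation marker *Mki67* measured -0.42, -0.57, -0.60 and -0.44 and then 0.64, 0.62 and 0.79, and *Birc5*, survivin, reversed from -0.88 to 0.62. In these 3 genes the times did not overlap. Immediate early genes were higher in 11 of 16 with none lower. *Nr4a2*, an orphan nuclear receptor, measured -0.25, -0.24, -0.05 and -0.19 and then 1.83, 1.89 and 2.00, with differences of 2.05 and 2.09 in its 2 probes, and *Fos* rose from -0.67 to 0.28. *Nr4a1* grew from 0.21 to 1.23.

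Blood genes ran opposite to these. All 7 tested genes of red cells were lower at 8 weeks (19.4% of all genes), with a median between 0.14 and 0.21 on the 4-week arrays and between -0.76 and -0.65 on the 8-week arrays. The globin gene *Hbb-bt* measured 0.26, 0.25, 0.26 and 0.34 and then -0.91, -0.65 and -0.76, and *Hba-a2* reversed from 0.53 to -0.53. Globin genes share sequence, so which copy a probe read is uncertain. The control channel rose by a median of 1.27 over these genes and the DEP channel by 0.29. Fast skeletal muscle genes were lower in 17 of 20, in 11 without replicate 2 of 8 weeks, led by *Ckm*, muscle creatine kinase (-1.30), and *Mybpc2*, a thick filament protein (-1.23). *Myh4*, a myosin heavy chain, was the exception and rose from -0.27 to 0.82. Muscle signal fell in both channels, by a median of 0.97 for DEP and 0.48 for control.

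**Figure D4:**
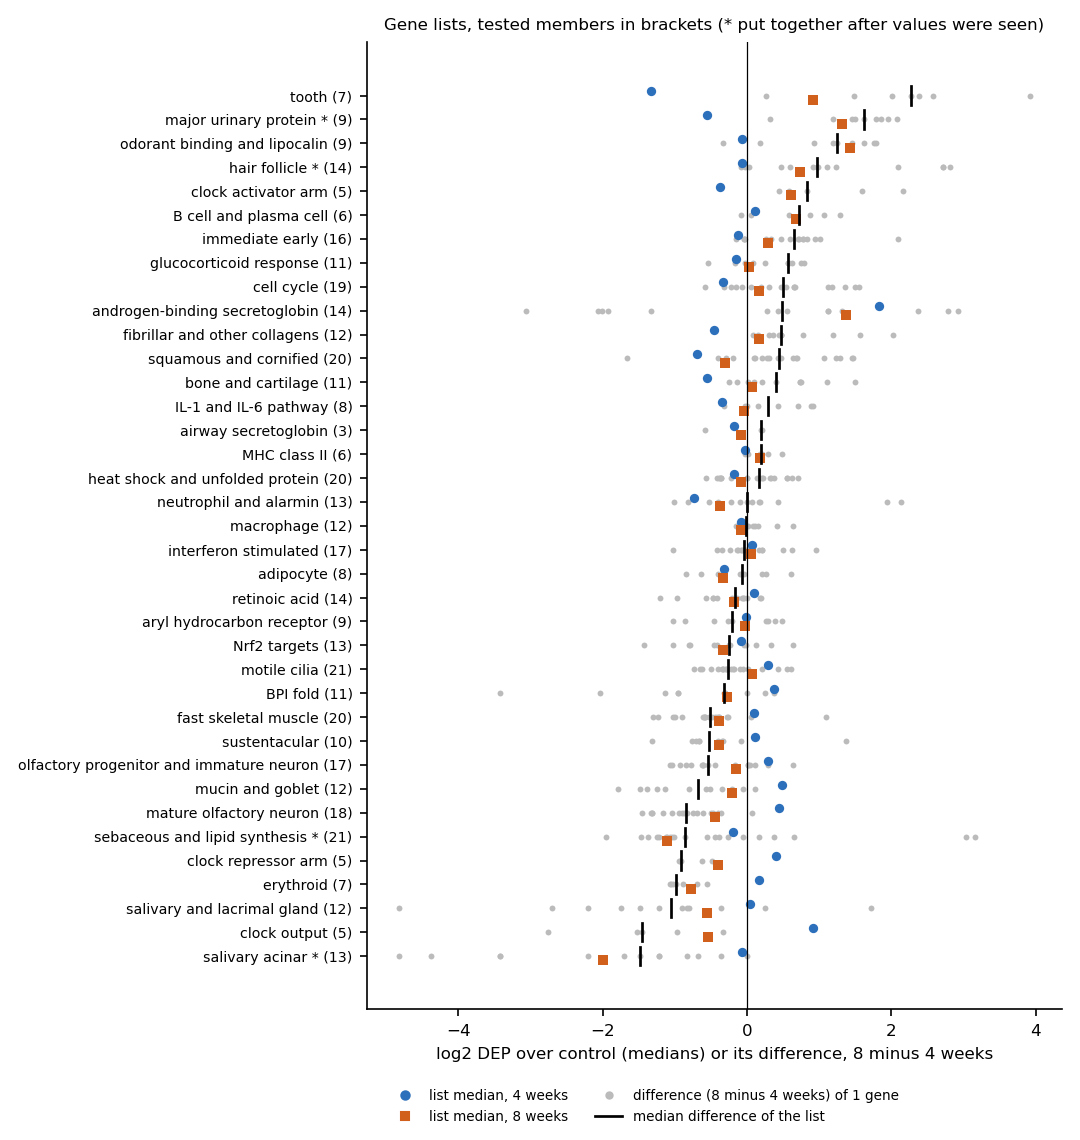
Median log2 ratio of DEP over control at 4 weeks (circles) and at 8 weeks (squares), with the 8 minus 4 week difference of every tested member in grey and the list's median difference as a bar, all on 1 log2 scale (x axis), by gene list, where the asterisk marks lists put together after values were seen. The tooth median goes from -1.33 to 0.92 and the salivary acinar median from -0.07 to -2.0.

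In 39 genes the 4-week response faded, 24 of them higher and 15 lower at 4 weeks. *Scgb1b2*, of the androgen-binding secretoglobins that glands of the mouse head secrete, measured 3.51, 3.57, 3.54 and 3.61 at 4 weeks and 0.49, 0.43 and 0.58 at 8 weeks. It was 11.8-fold higher in DEP tissue at 4 weeks and 1.41-fold higher at 8 weeks, and its log2 signal fell by 8.48 in the DEP channel and fell by 5.42 in the control channel. *Lpo*, lactoperoxidase, an antimicrobial enzyme of airway and salivary secretions, measured 2.78, 2.96, 3.08 and 3.1 and then 0.27, 0.23 and 0.34. Its 4-week arrays were all far above its 8-week arrays, with a difference of -2.70 (limma, adjusted p = 2.8e-06). *Esp6*, of a family of peptides that exocrine glands secrete, measured 3.08, 2.40, 2.98 and 2.10 and then -0.26, -0.49 and -0.37. *Rnu1b6*, a U1 RNA of the splicing machinery, fell from 1.53 to -0.69, with 8-week values spread from -1.85 to 0.03 and a difference that was -1.65 without replicate 3 of 8 weeks.

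*Cxcl5* and *Cxcl1*, chemokines that attract neutrophils, were low at 4 weeks and level with control at 8 weeks. *Cxcl5* measured -2.01, -2.02, -2.20 and -2.12 and then -0.36, -0.11 and 0.03. *Cxcl1* measured -1.81, -2.11, -2.13 and -2.13 and then 0.18, 0.09 and 0.01, and had clear DEP signal on 3 of the 4-week arrays. For both, every 8-week array stood above every 4-week array. *Cd14*, the co-receptor for endotoxin, rose from -1.39 to 0.14, as control signal fell by 2.27 and DEP signal fell by 0.74. Also faded were *Cdsn*, a protein of cornified cell contacts (from -1.1 to 0.48, with -1.94 on replicate 3 of 4 weeks), and *Mup3* (from -1.33 to 0.13), and the squamous keratin *Krt13* (from -1.27 to -0.21).

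Other inflammatory genes were of mixed course. *S100a9*, a calprotectin subunit of neutrophils, measured -1.56, -1.71, -1.72 and -1.82 and then -1.80, -1.71 and -1.89, with overlapping times and a difference of -0.09, interval -0.29 to 0.11. Its partner *S100a8* measured -0.64, -0.75, -0.96 and -0.75 and then -1.70, -1.69 and -1.95, so its response grew by 1.01 to the lower side. *Ngp*, a neutrophil granule protein, fell by 0.82. Of 13 tested neutrophil and alarmin genes 3 were higher and 2 lower at 8 weeks, shares near those of all genes (16.1% and 19.4%). *Il1b*, a key gene of the study at 4 weeks, measured -0.84, -1.02, -0.94 and -0.87 and then -0.13, -0.06 and 0.10, a difference of 0.88 (limma, adjusted p = 0.00023), so that it too was low at 4 weeks and near control at 8 weeks. *Socs3*, a feedback inhibitor of cytokine signalling, rose by 0.91 and *Il1r1*, the IL-1 receptor, by 0.71. Of 8 tested genes of the IL-1 and IL-6 pathway 4 were higher and none lower (16.1% and 19.4% of all genes). *Il6* was not well above background at 8 weeks and was not tested. Of 12 macrophage genes 2 were higher, a share near that of all genes, and none lower.

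Of the other key genes of the study, *Cyp26b1* and the brighter probe of *Cfap69* were closer to control at 8 weeks. The 4-week means of *Cyp26b1*, *Cfap69* (brighter probe), *Synpr* and *Il1b* were 0.89, 0.59, -0.57 and -0.92. Each was short of the 2-fold limit by which the paper chose its genes. *Cfap69*, of olfactory cilia, measured 0.62, 0.61, 0.55 and 0.56 and then -0.01, 0.06 and 0.21 by that probe, a difference of -0.50. Its other probe reversed, from 0.92 to -0.35, a difference of -1.27. *Cyp26b1*, which degrades retinoic acid, measured 0.74, 0.96, 0.78 and 1.08 and then -0.01, 0.05 and -0.29, a difference of -0.98. Times did not overlap for either gene. *Synpr*, a synaptic vesicle protein, measured -0.35, -0.47, -0.75 and -0.73 and then -0.94, -0.93 and -0.71. Its difference of -0.29 had an interval of -0.57 to -0.01 (limma, adjusted p = 0.10), and it passed with median centring (-0.35, adjusted p = 0.037) and with processed signals (-0.67, adjusted p = 0.038). *Gapdh*, used in many assays as a reference gene and among the study's qRT-PCR primers, went from 0.55 to -0.16 by its brightest probe. Its 7 probes lay between -0.05 and 0.55 at 4 weeks and differed by -0.96 to -0.44. The difference of -0.44 did not pass (limma, adjusted p = 0.12). Of 14 genes of retinoic acid metabolism and signalling 6 were lower and none higher (19.4% and 16.1% of all genes), with the receptor *Rarb* reversed from 0.85 to -0.36.

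Growing responses were those of 110 genes, 85 higher and 25 lower at 8 weeks. *Scgb1b7*, a secretoglobin on chromosome 7 like *Scgb1b2*, measured 1.72, 1.52, 1.45 and 1.56 and then 4.41, 4.43 and 4.63. It was 2.95-fold higher at 4 weeks and 22.5-fold higher at 8 weeks, while its log2 signal fell by 2.45 in the DEP channel and fell by 5.38 in the control channel. Of 14 tested secretoglobins of this family, 8 were higher and 5 lower at 8 weeks (16.1% and 19.4% of all genes). *Scgb2b2*, *Scgb1b10*, *Scgb1b3* and *Scgb2b15* faded with *Scgb1b2*, and *Scgb2b7* (from 1.16 to 3.94), *Scgb1b19* (from 1.80 to 4.17) and *Scgb1b20* (from 1.86 to 2.98) grew with *Scgb1b7*. Control signal of *Scgb2b7* and *Scgb1b19* was well above background on 2 of 3 arrays at 8 weeks. These paralogs are close in sequence, so that a probe cannot be assigned to a single gene with certainty, as for *Scgb2b20*, whose 2 probes differed by 0.43 and 3.54.

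Lipocalins that carry odorants and pheromones were higher in 7 of 9 (16.1% of all genes), and their median went from -0.06 to 1.42. *Mup4*, a nasal major urinary protein, measured 0.13, 0.22, 0.25 and 0.15 and then 1.74, 1.83 and 1.86. *Obp1a*, an odorant-binding protein, measured -0.47, -0.16, -0.19 and -0.20 and then 1.21, 1.55 and 1.75. Every 8-week array was above every 4-week array for both, with differences of 1.62 and 1.76. The other probe of *Mup4* went from -0.28 to 1.64, so that only its 8-week direction was shared. *Mup19* and *Mup20* appeared at 8 weeks, at 1.82 and 1.72, and *Mup1* reversed from -0.61 to 1.47. Major urinary protein genes, put together after values were seen, were higher in 8 of 9, and their probes cannot be told apart with certainty. *Ermn*, which encodes ermin, grew from 0.32 to 1.70 by its brighter probe, but its other probe differed by -0.35. *B020031M17Rik*, a gene without a known role, grew from 0.28 to 1.71. Of the 85 genes that grew to the higher side, 58 had no gene symbol, and the quartiles of the 85 were 1.52 and 1.66 at 8 weeks.

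Genes of salivary glands fell at 8 weeks. Of 12 salivary and lacrimal genes 10 were lower (19.4% of all genes), with a median from 0.04 to -0.55 as the DEP channel fell by 2.10 and the control channel fell by 0.75, and *Klk1*, tissue kallikrein, was higher (from -0.23 to 1.49). *Amy1*, salivary amylase, measured -0.14, -0.06, 0.01 and -0.07 at 4 weeks and -5.07, -4.81 and -4.81 at 8 weeks. *Smr3a*, a submandibular gland protein, measured 0.11, -0.0028, -0.20 and -0.18 and then -4.41, -4.44 and -4.50. Both were near control on all 4 early arrays and far below it on all 3 late arrays, 29.8-fold for *Amy1* and 21.9-fold for *Smr3a*. The control channel rose by 5.57 and 5.3 between the times and the DEP channel by 0.75 and 0.92. *Bpifa2*, the parotid secretory protein, measured -0.93, -0.53, -0.40 and -0.64 and then -4.17, -3.84 and -4.13, so its response grew.

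*Chia1*, an acidic chitinase, fell from 0.14 to -3.28, and its 4-week control signal was well above background on 1 of 4 arrays. A list of salivary acinar genes was put together after values were seen and includes *Amy1*, *Smr3a* and *Bpifa2*, so it is no separate support. Of its 13 tested genes 12 were lower (19.4% of all genes). The list's median was between -0.20 and -0.06 on the 4-week arrays and between -2.13 and -1.91 on the 8-week arrays. *Bhlha15*, a secretory cell transcription factor, was not among the lower genes, at 0.73 at both times. Over the 13 genes the control channel rose by a median of 0.50 and the DEP channel fell by 0.55. How much gland was taken with the nasal tissue is not given in the sources used here, and its part in these values was not tested. *Lpo* and *Pip* (from 2.08 to 0.34) are on the salivary and lacrimal list too, and these were high at 4 weeks.

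**Figure D5:**
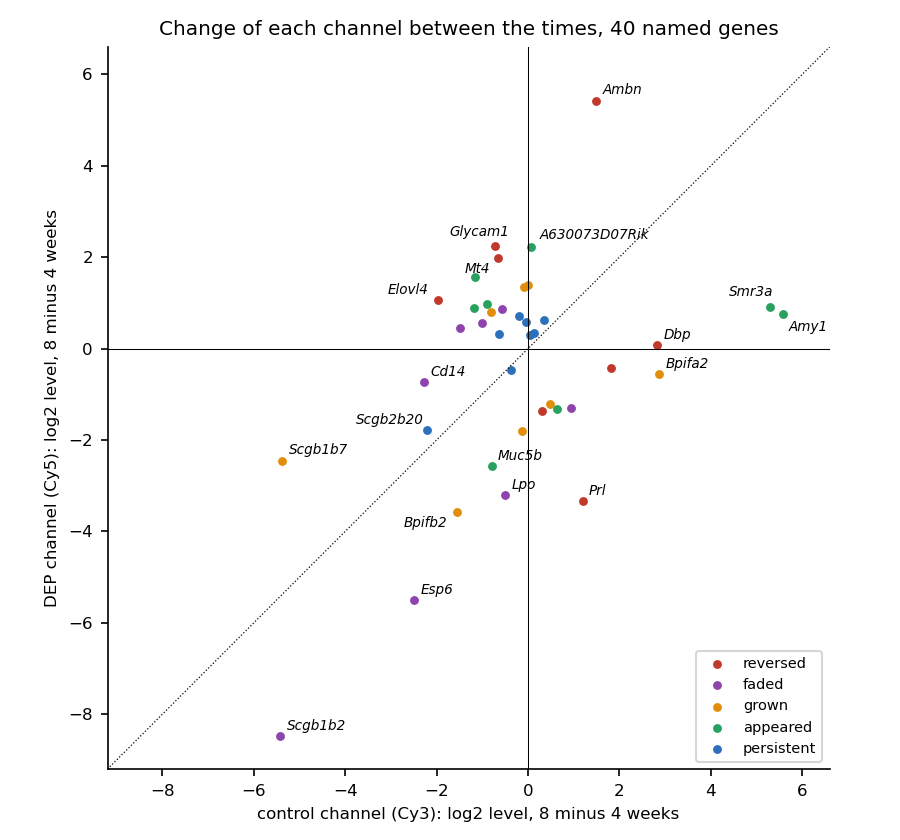
Change of the normalized log2 signal from 4 to 8 weeks in the control channel (x axis) and in the DEP channel (y axis) for the 40 named genes, where the diagonal marks equal change. *Amy1* and *Smr3a* lie far right near 0 on the y axis, *Scgb1b2* lies at -5.42 and -8.48, and *Ambn* lies above the diagonal at 1.5 and 5.43.

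Among the 592 called genes with a value for each channel, the DEP channel moved more than the control channel in 426. The control channel moved more in 166. Such a value did not require a channel to be well above background. Both channels were so on all arrays in 250 of the 275 reversed genes and in 72 of the 113 that appeared. The channel levels compare arrays on different slides after normalization between arrays, and the same limit of slide and time applies. Mucin and goblet cell genes were lower in 8 of 12 with none higher (19.4% and 16.1% of all genes), and their median went from 0.49 to -0.20. *Muc5b*, a gel-forming airway mucin, measured 0.06, 0.31, 0.32 and 0.29 and then -1.29, -1.49 and -1.83. Its times do not overlap, with a difference of -1.78. *Muc5ac*, the goblet cell mucin, faded from 1.21 to 0.06, and *Muc2* reversed from 0.79 to -0.59. *Bpifb2* (-2.03) and *Bpifa2* led 6 lower genes of 11 in the BPI fold family of secreted proteins, and *Bpifa1*, abundant in nasal secretions, was 0.37 higher.

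Genes of lipid synthesis and sebaceous cells, put together after values were seen, were lower in 14 of 21 and higher in 4 (19.4% and 16.1% of all genes). *Scd3*, a fatty acid desaturase, measured -0.31, 0.17, -0.07 and 0.17 and then -1.98, -1.89 and -2.02, and its other 2 probes differed by -1.67 and -0.78. *Insig1*, a sterol sensor partner, fell by 1.37, *Plin2*, a lipid droplet coat protein, by 1.24 and *Fasn*, fatty acid synthase, by 1.1. *Elovl4* and *Fa2h*, the fatty acid 2-hydroxylase, went against the list, with *Fa2h* from -0.59 to 2.56 and its control signal well above background on 2 of 3 arrays at 8 weeks. *Aqp8*, a water channel (-1.71, and -0.93 in its other probe), and *Aadacl4fm1*, of the arylacetamide deacetylase family (-1.68), also grew to the lower side. Hair follicle genes, likewise chosen after values were seen, were higher in 10 of 14 with none lower. *Krt35*, a hair keratin, measured 0.33, -0.43, -0.09 and 0.35 and then 2.79, 2.89 and 2.60, and *Tchh*, trichohyalin of the inner root sheath, measured -0.40, -0.56, -0.42 and -0.38 and then 1.52, 1.70 and 1.74. Hair and skin taken with the tissue were not tested for their part in these values. *A630073D07Rik* and *Gm14743*, without known roles, appeared at 1.56 and 1.92. At 4 weeks *A630073D07Rik* lay between -0.71 and -0.45, a mean of -0.58 (limma, adjusted p = 0.063). Its 8-week values were spread from 0.60 to 2.15.

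Squamous and cornified genes were low at 4 weeks and less so at 8 weeks, with 13 of 20 higher, 2 lower (16.1% and 19.4% of all genes) and a median from -0.69 to -0.31. With the background fitted on all spots 8 of the 20 were higher. *Sprr1b*, a precursor of the cornified envelope, measured -1.24, -1.28, -1.34 and -1.22 and then 0.18, 0.18 and 0.22, and *Krtdap*, a keratinocyte differentiation protein, reversed from -1.1 to 0.36. *Sprr2f* went against them, from 0.56 to -1.09, and probes of the *Sprr2* genes may read related copies. *Jchain*, the joining chain of secreted antibodies, reversed from -0.24 to 0.83, and *Pigr*, the receptor that carries such antibodies across epithelium, measured 0.41, 0.38, 0.39 and 0.22 and then 1.63, 1.81 and 1.48.

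Targets of Nrf2 were lower at 8 weeks in 7 of 13 and higher in none (19.4% and 16.1% of all genes), and their median went from -0.08 to -0.33. *Gstm1*, a glutathione transferase, measured 0.72, 0.60, 0.55 and 0.51 and then -0.79, -0.72 and -0.97. *Nqo1*, a quinone reductase, measured 0.39, 0.20, 0.25 and 0.25 and then -0.74, -0.59 and -0.92. Both genes reversed with no overlap of times, at differences of -1.42 and -1.02. *Hmox1*, heme oxygenase, ranged from -1.63 to -0.10 at 4 weeks, and its difference of 0.63 had an interval of -0.16 to 1.42 (limma, adjusted p = 0.19). Of 9 genes of the aryl hydrocarbon receptor pathway 2 were higher and 3 lower, *Nqo1* among them (16.1% and 19.4% of all genes). *Cyp1a1*, its most inducible target, went from 0.28 to 0.08, a difference of -0.20 with an interval of -0.43 to 0.02 (limma, adjusted p = 0.14). Interferon-stimulated genes were higher in 3 and lower in 4 of 17, near the shares of all genes.

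In 106 genes the response persisted, 93 higher and 13 lower, and in 99 of them the interval of the difference lay inside 1 log2 unit on either side of 0. The 93 genes were alike in size, with quartiles of 1.09 and 1.21 at 4 weeks and of 1.16 and 1.31 at 8 weeks, and 29 had no gene symbol. *Kcna4*, a potassium channel, measured 1.32, 1.13, 1.20 and 1.24 and then 1.49, 1.5 and 1.55. *Atxn7*, a chromatin protein, measured 1.23, 1.21, 1.22 and 1.18 and then 1.44, 1.41 and 1.45, but its other probe measured 0.35 and 0.56. *Bpifc* (1.23 and 1.47) and *Csf3r*, the receptor for granulocyte growth factor (1.28 and 1.07), were also held at both times. Only 1 of the 25 persistent genes with several tested probes had another probe that persisted too, and in 11 of the 25 all probes differed in the same direction. Without a dye swap, a response of the same size at both times cannot be told apart from a dye effect of the probe.

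On the lower side *Ada*, adenosine deaminase, measured -2.38, -2.57, -2.51 and -2.46 and then -1.63, -1.47 and -1.51. *BC037156*, a gene without a known role, measured -2.83, -2.61, -2.59 and -2.30 and then -1.62, -1.65 and -1.71. *Sprr2d* measured -2.26, -2.54, -2.56 and -2.57 and then -1.70, -1.83 and -2.0. These 3 genes stayed low at 8 weeks but were less low than at 4 on every array, with differences of 0.94, 0.92 and 0.64 (limma, adjusted p = 0.00012, 0.001 and 0.0034) that fell short of 2-fold. With the background fitted on all spots, *Ada* (adjusted p = 0.10) and *Sprr2d* (adjusted p = 0.26) did not pass.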

How the data were processed

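RNA of DEP-exposed and control nasal cavity was hybridized together on each of 7 arrays, 4 of them after 4 weeks and 3 after 8 weeks. The authors deposited the output of Feature Extraction 10.10.1.1 for every array, with median intensity of spot and local background in each channel, and a processed intensity, from which the software had subtracted background and removed spatial trend and dye bias. The GeneSpring step named in the study's methods is not in these values.

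Median signals were corrected in limma 3.58.1 (R 4.3.3) by normexp with an offset of 50, with the background fitted without spots marked as background outliers, and log2 ratios were normalized by loess within arrays. Non-uniform spots were left out and spots of a probe averaged. A probe was tested when at least 3 arrays of 4 weeks and 2 of 8 weeks had it well above background with either dye (21518 of 39429 probes, for 17714 genes or transcripts, of which 13961 have a symbol). Names come from RefSeq (GRCm38.p6), which held the accession of 28330 probes, and otherwise from the files. A linear model gave each exposure time its mean over its arrays, with a spread shared by all 7 arrays, each contrast was tested by limma's moderated statistics, and p-values were adjusted by Benjamini-Hochberg over all tested probes. Intervals are 95% confidence intervals. A call needed an adjusted p of at most 0.05 and 2-fold. Channel levels are from Aquantile normalization over the 7 arrays, and precision is set by the number of arrays. The steps were tested on simulated data.

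The genes named are, for each pattern and direction, up to 4 genes with a symbol and the largest difference (for persistent responses the largest mean of both times), bright in both channels on all 7 arrays and of uniform sign at the time that defines the pattern (both times for reversed, grown and persistent responses), the members of 38 gene lists, the key genes of the study and *Gapdh*. Members and lists were chosen with earlier results of these data known, and 5 further lists were added after values were seen. List members are described by counts, to be read against the shares of all genes, with no test of a list, and 1 list member that was tested and did not pass is not reported here and is left out of its list's counts and medians. The alternatives were other background corrections, normalizations and filters, a replicate block, leaving out each array, the methods' t-test and, chosen after seeing the data, the mean of all tested probes of a gene.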

Additional observations from a re-analysis of the deposited data

Results flagged for a closer look

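Single arrays of 4 weeks stood apart in 14 of 163 genes checked, by a gap to the nearest other array that fills most of the range of the 4 arrays, which chance gives for about 1 gene in 20. The log2 ratio of replicate 1 stood apart for *Klk4* (-1.54), *Muc5b* (0.060), *Scgb2b20* (1.904), *Sprr2d* (-2.26), *Cxcl1* (-1.81), *Myh4* (-0.11), *Cbr2* (0.28), *Obp1a* (-0.47), *Scgb2b2* (3.31) and *Pip* (1.88). Replicate 3 stood apart for *Cdsn* (-1.94) and *Bpifb2* (-0.15), and replicate 4 for *Hbb-bt* (0.34) and *Col1a1* (-0.47).

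The named genes that reversed, faded, grew or appeared were chosen for a response that differed between the times by limma's test of the difference. Their passing it is no further result. Uniform signs at the time or times that define the pattern were a condition of the choice too. The 8 minus 4 week differences of reversed genes were -4.54 for *Prl*, -2.75 for *Dbp*, -2.25 for *Alas1*, -1.68 for *Upk3bl*, 3.93 for *Ambn*, 3.04 for *Elovl4*, 2.97 for *Glycam1* and 2.63 for *Mt4*. Those of faded genes were -3.06 for *Scgb1b2*, -3.01 for *Esp6*, -2.70 for *Lpo*, -2.23 for *Rnu1b6*, 1.94 for *Cxcl5*, 1.58 for *Cdsn*, 1.53 for *Cd14* and 1.45 for *Mup3*. Those of grown genes were 2.93 for *Scgb1b7*, 1.62 for *Mup4*, 1.44 for *B020031M17Rik*, 1.37 for *Ermn*, -3.42 for *Bpifa2*, -2.03 for *Bpifb2*, -1.71 for *Aqp8* and -1.68 for *Aadacl4fm1*. Those of genes that appeared were 2.72 for *Krt35*, 2.14 for *A630073D07Rik*, 2.08 for *Gm14743*, 1.86 for *Mup19*, -4.83 for *Amy1*, -4.38 for *Smr3a*, -1.95 for *Scd3* and -1.78 for *Muc5b*. In each, the effects of slide and time cannot be told apart.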

How the results depend on the processing

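With median centring 403 genes were called lower and 46 responses persisted, against 226 and 106. Of those 106, 37 still persisted with that centring. The processed signals gave 1141 lower, 718 reversed, 314 faded, 240 appeared and 238 persistent genes, and a filter for both channels on all arrays left 68 that appeared. The cause was not tested. All 275 reversed genes kept the direction of their difference under both scalings, and 211 and 253 of them stayed reversed. Leaving out 1 array at a time gave 335 to 415 higher, 198 to 277 lower, 234 to 317 reversed, 43 to 46 faded, 90 to 111 grown, 100 to 140 appeared and 98 to 111 persistent genes. With the methods' t-test, 554 genes passed its p threshold and 2-fold, and 337 higher and 222 lower genes after Benjamini-Hochberg adjustment.

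Same-numbered arrays did not deviate together (r of -0.014 to 0.016), which gives no sign of pairing by number but cannot exclude it. With a replicate block, in which replicate 4 of 4 weeks has no partner, the adjusted p of limma passed for 3634 genes in place of 6283, while 356 higher and 229 lower genes met the call with its fold limit, 7 cell cycle genes were higher in place of 11, and the difference of *Klk4* lost its call (adjusted p = 0.051). Over 18 settings, 2847 of 2919 recomputed differences of 163 single genes kept their direction and their side of an adjusted p of 0.05. Of the rest, 61 no longer passed it, 11 came to pass it and none reversed. The fold limit was not part of this count, and 19 genes changed under any setting. The direction of the median difference of the neutrophil, heat shock, macrophage, interferon, airway secretoglobin, reference gene, solitary chemosensory cell and vomeronasal receptor lists flipped under at least 1 scaling or background setting. With 4 and 3 arrays, and a slide for each time, the depth of replication limits small differences most.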
